A study of Mus musculus with 22 samples.

Results

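The 50 µM cyclosporin A cultures at 24 h were 2 arrays among the 22 of the series, and they were set against the 5 DMSO arrays of the same time. Cyclosporin A (CsA) is a calcineurin inhibitor given against graft rejection, and it can injure the liver. The cells were primary hepatocytes of C57Bl6 mice, plated in serum-containing medium and exposed to CsA or to the solvent alone, and their small RNAs were read on single-colour Agilent mouse miRNA arrays. The solvent was 0.5% DMSO in every culture, CsA cultures included. Members were taken by the column names of the deposited value table, and each column was tied to the scanner file with the same signals. The 50 µM cultures at 24 h were replicate 2 of experiment 2 and replicate 3 of experiment 3. The DMSO cultures at 24 h were replicate 1 of experiment 1, replicates 3 and 4 of experiment 2, and replicates 5 and 6 of experiment 3. Each sample also carries an IC20 tag, 24 h for 50 µM and 48 h for 10 µM. DMSO replicates 3 and 5 carry the 24 h tag of the 50 µM cultures, and replicates 1, 4 and 6 the 48 h tag. Further groups serve for comparison: 10 µM CsA for 24 h (3 arrays), 50 µM CsA for 48 h (3 arrays) and DMSO for 48 h (6 arrays). All of them, and 10 µM CsA for 48 h (3 arrays), also entered the fitted model and its estimate of spread. The labels call the samples biological replicates but give no animal, age or sex, and their treatment protocol mentions HepG2, a human line, against the mouse hepatocytes stated everywhere else. The p-values below rest on the spread between cultures within all 6 groups, not within the 2 compared groups alone.

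The names of the samples are themselves uncertain. Of the 22 columns, 6 matched the scanner file of the same sample name while 16 matched a file named as another sample of the same time and experiment. Both 50 µM columns at 24 h held arrays that the scanner files name as 10 µM. All results below follow the column names. Grouped by the scanner files' names, the same contrast gave 0 calls in limma (7 of 289 miRNAs at an unadjusted p under 0.05), so every dose statement here rests on the column names.

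A mature miRNA is a short RNA that guides Argonaute proteins to mRNAs, mainly through its seed, the bases 2 to 8 from the 5′ end, and lowers their translation and stability. In the liver miR-122 is by far the best known, and it supports hepatocyte identity and lipid metabolism. Calcineurin, the phosphatase that CsA inhibits in complex with cyclophilin, activates NFAT transcription factors, and hepatocytes exposed to CsA are used in toxicology as a model of drug-induced cholestasis.

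After 24 h at 50 µM, 11 of the 289 tested miRNAs rose and 0 fell (limma, Benjamini-Hochberg adjusted p under 0.05; 3.81% and 0% of those tested). They were miR-770-3p, miR-494-3p and miR-370-3p of the imprinted Dlk1-Dio3 cluster, miR-3473a and miR-3473b, and 6 entries with catalogue numbers of 5000 and above, miR-5105, miR-5116, miR-5119, miR-5622-3p, miR-6243 and miR-6378. Their measured folds ran from 1.40 to 5.84, and 10 of the 11 were over 1.5-fold. The abundant hepatocyte miRNAs gave no call. The mature sequences of 8 of the 11 were found in RefSeq (GRCm38.p6); miR-5105, miR-6243 and miR-6378 are named only. The sequences are shown because they separate the risers by seed; capitals mark the seed, bases 2 to 8.

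miR-770-3p: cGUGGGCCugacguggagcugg
miR-370-3p: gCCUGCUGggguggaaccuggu
miR-494-3p: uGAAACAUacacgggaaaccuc
miR-3473a: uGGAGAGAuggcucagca
miR-3473b: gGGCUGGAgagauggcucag
miR-3473e: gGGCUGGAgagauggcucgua
miR-5116: uUUGAUAGgaaccccgccuga
miR-5119: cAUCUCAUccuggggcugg
miR-5622-3p: cUUAGCUGgguagugguggugc

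The seeds of the 8 differed from each other. Among the 230 tested miRNAs with a RefSeq sequence only miR-3473e, which gave no call, shared a seed with a riser, that of miR-3473b. The longest run of bases common to miR-3473a and miR-3473b was 16 bases, uggagagauggcucag, which starts at base 1 of miR-3473a and at base 5 of miR-3473b, so their seeds do not coincide. miR-3473b and miR-3473e shared 18 bases. Outside the miR-3473 family no 2 of the 8 had more than 7 bases in a common run. With sequences this close, labelled RNA of one member may bind the probe of another, and the values of the family are uncertain as separate measurements.

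By position, 3 risers lay on the plus strand of chromosome 12 in GRCm38.p6 within 151.6 kb. miR-770-3p was at chr12:109563744-109563765 inside the span of Meg3, the maternally expressed non-coding RNA gene. miR-370-3p was at chr12:109618305-109618326 inside the span of Rian, another maternally expressed non-coding gene. miR-494-3p was at chr12:109715367-109715388, and no spanning gene was listed for it. The others were scattered and lay inside the spans of protein-coding genes: miR-3473a at chrX:162874920-162874937 (minus strand, Syap1), miR-3473b at chr10:41670774-41670793 (plus, Ccdc162), miR-5116 at chrX:56587892-56587912 (minus, Mmgt1), miR-5119 at chr11:98262638-98262656 (plus, Cdk12) and miR-5622-3p at chr2:152865105-152865126 (plus, Tpx2). The strands given are those of the miRNAs, and the strands of the spanning genes were not compared with them. Whether these positions are exonic or intronic was not analysed here. They are the annotated positions only, and other copies of these sequences in the genome were not searched for.

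Values are given as relative signal, the processed intensity of a miRNA's brightest probe over the 75th percentile of its array, taken from the 281 probes seen on all 22 arrays. That percentile was 265 to 289 on the 50 µM arrays and 188 to 373 on the DMSO arrays. For the statistics, values were held at a floor of 0.0471, the typical lowest signal still above background, and put on a log2 scale. Of the tested miRNAs, 231 to 243 were well above background on the 50 µM arrays, against 208 to 259 on the DMSO arrays. The differences had a median of 0.11 over all 289, and 180 of them were positive, so single values are to be read against that median. Scaling by all probes instead moved the median to 0, a shift of the whole table by about that amount. In bulk cultures, fewer cells of a type and less RNA per cell cannot be told apart.

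The cultures carried the marks of hepatocytes. miR-122-5p had relative signals of 54.9 and 56.4 on the 50 µM arrays, against 43.7 to 59.9 on the DMSO arrays, and the summed signal of 14 hepatocyte-enriched miRNAs was 70.9 and 72.8 against 57.3 to 78.9. None of 4 leukocyte and macrophage markers (among them miR-142-3p and miR-223-3p), 2 erythroid markers or 5 biliary epithelial markers of the miR-200 family was above background on any of the 7 arrays. The summed signals of these lists were at most 0.0112, 6.02e-05 and 0.00588 on the 50 µM arrays, against at most 0.0222, 0.0026 and 0.00611 on the DMSO arrays. Of the endothelial markers, miR-126-3p was seen at 0.110 and 0.158 on the 50 µM arrays, against 0.0982 to 0.179 on the DMSO arrays, while miR-126-5p was dark on all 7. Of the 5 mesenchymal and stellate markers only miR-145a-5p was seen, at 0.0609 and 0.0703 against 0.0357 to 0.0983. The summed signals of the lists thus overlapped between the groups, and the hepatocyte sum was largely that of miR-122-5p. Single hepatocyte-enriched miRNAs did not all overlap. Lower at 50 µM without overlap were miR-101a-3p, miR-192-3p and miR-193b-3p, the last dark on all 7 arrays. Of the 12 tested hepatocyte-enriched miRNAs, 0 lay higher without overlap.

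The risers of the Dlk1-Dio3 cluster come first. This imprinted region carries many miRNAs processed from maternally expressed transcripts, which are abundant in embryo, placenta and brain and low in adult liver. miR-494-3p gave a clear signal on all 7 arrays. Its relative signal was 5.29 and 7.71 on the 50 µM arrays, against 3.88, 4.11, 2.48, 3.67 and 2.98 on DMSO replicates 1, 3, 4, 5 and 6. Both 50 µM values lay above all 5 DMSO values, and the log2 difference was 0.92 ± 0.21 (SE), a 1.90-fold rise (limma adjusted p = 0.010).

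miR-370-3p, reported in human HepG2 cells to lower Cpt1a, the enzyme that brings fatty acids into mitochondria, had relative signals of 0.318 and 0.362 at 50 µM. On DMSO replicates 1, 3, 4, 5 and 6 it had 0.115, 0.0939, 0.0823, 0.103 and 0.0824. The groups lay far apart for this dim miRNA, with a 3.59-fold rise and a log2 difference of 1.84 ± 0.46 (limma adjusted p = 0.022). It kept its call in 3 of the 7 fits that left out 1 array, where the highest adjusted p in limma was 0.30.

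miR-770-3p, processed from the Meg3 transcript, was close to the detection limit. It had 0.0828 and 0.0801 at 50 µM, against 0.0477, 0.0479, 0.0423, 0.0455 and 0.0393 on the DMSO arrays, of which 3 were well above background. Its log2 difference of 0.78 ± 0.08 had the lowest p of the 289 (limma adjusted p = 1.76e-06), but 3 of the 5 DMSO values were held at the floor. The fitted fold of 1.72 depends on that floor, and the SE is too small. It was the only miRNA that kept its call when any 1 of the 7 arrays was left out.

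Of 109 cluster members on the array, 9 were tested, 3 of which rose and 0 fell (3.81% of all 289 rose), and their median difference was 0.46 against 0.11 over all tested miRNAs. A further 5 had positive differences that did not pass, from 0.19 for miR-134-5p to 0.46 for miR-3072-5p. miR-134-5p is a neuronal miRNA that limits dendritic spine growth, and it had 0.175 and 0.304 at 50 µM, against 0.164 to 0.252 in DMSO. miR-487b-3p alone was negative, at -0.50 ± 0.20 (limma adjusted p = 0.21). It was not above background on either 50 µM array, and on DMSO it was seen on replicates 4, 5 and 6 only, at 0.0775, 0.0795 and 0.0964.

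**Figure D1:**
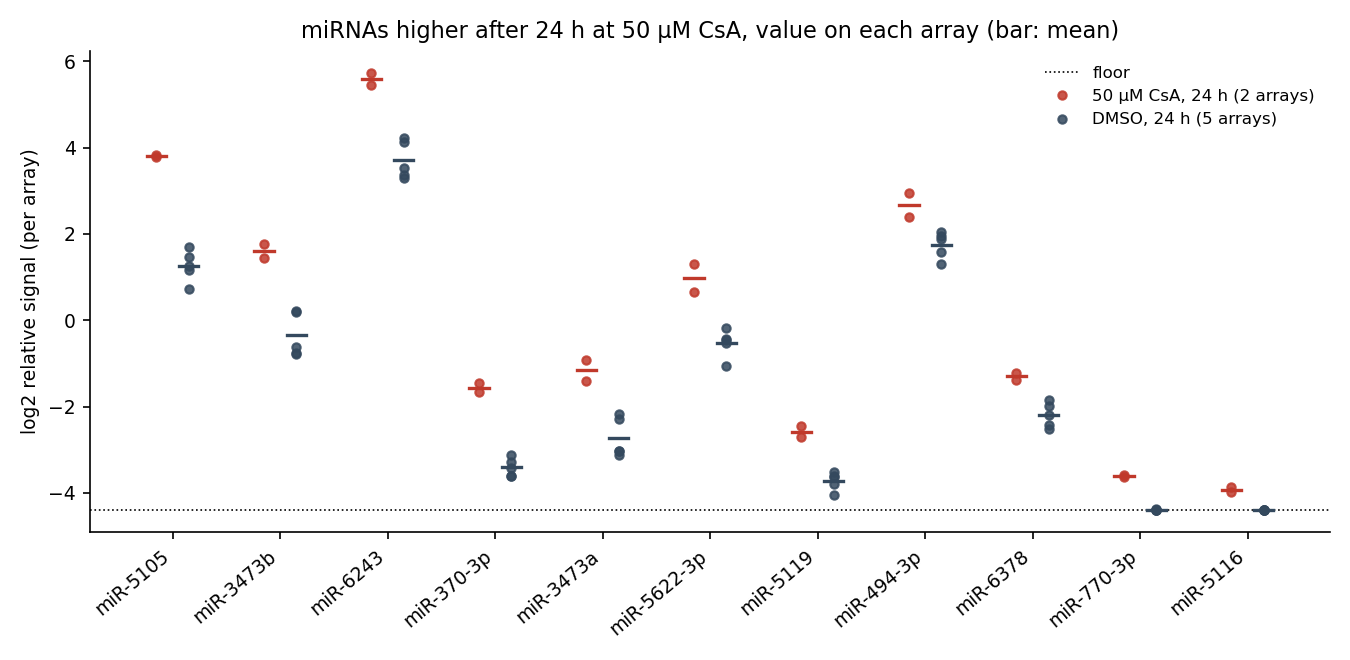
Log2 relative signal (vertical axis) of the 11 miRNAs that rose, 1 point per array, with 2 arrays at 50 µM CsA (left of each pair) and 5 DMSO arrays (right), all at 24 h; bars are group means and the dotted line is the floor at -4.41. In all 11, both 50 µM points lie above all 5 DMSO points, an order favoured by the choice of called miRNAs. It holds for 44 of all 289 (15.2%). miR-770-3p and miR-5116 sit at the floor in DMSO.

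The miR-3473 family has no well-established function. miR-3473b, described in mouse macrophages as a regulator of inflammatory signalling, had relative signals of 3.39 and 2.71 at 50 µM. Its DMSO values were 1.15, 1.14, 0.596, 0.654 and 0.579 on replicates 1, 3, 4, 5 and 6. The difference was 1.95 ± 0.37, a 3.86-fold rise (limma adjusted p = 0.0081), and the DMSO arrays themselves fell into a higher pair, replicates 1 and 3, and a lower trio.

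miR-3473a showed the same order of arrays. It had 0.529 and 0.378 at 50 µM, against 0.220, 0.203, 0.122, 0.122 and 0.115 on the DMSO arrays, a difference of 1.57 ± 0.35 (limma adjusted p = 0.010). miR-3473e, which holds the seed of miR-3473b, had 0.115 and 0.100 at 50 µM, against 0.0808, 0.0806, 0.0536, 0.0579 and 0.0404. Its groups did not overlap either, but the difference of 0.78 ± 0.42 did not pass (limma adjusted p = 0.40). Of the 5 family members on the array 3 were tested, and 2 rose, against 3.81% of all 289.

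The 6 risers with numbers of 5000 and above come from late additions to the miRNA catalogue, and little is known of what they do. miR-6243 had 43.6 and 53.4 at 50 µM, against 18.7, 17.5, 9.84, 11.6 and 10.4 on the DMSO arrays. Both CsA values were above all DMSO values, of which replicates 1 and 3 were again the higher. Its difference was 1.88 ± 0.39, a 3.68-fold rise (limma adjusted p = 0.0083).

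miR-5105 changed most. It had 14.1 and 13.8 at 50 µM, against 3.25, 2.77, 1.65, 2.37 and 2.23 in DMSO, a 5.84-fold rise (log2 2.55 ± 0.50, limma adjusted p = 0.0081). The CsA values were nearly equal and lay far above the highest DMSO value.

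miR-5622-3p was less even between the CsA arrays, with 1.57 and 2.48, against 0.742, 0.692, 0.478, 0.728 and 0.884 in DMSO. It rose 2.85-fold (log2 1.51 ± 0.33, limma adjusted p = 0.0094). miR-5119 had 0.152 and 0.183 at 50 µM, against 0.0868, 0.0812, 0.0604, 0.0727 and 0.0823 in DMSO, and rose 2.19-fold (log2 1.13 ± 0.25, limma adjusted p = 0.0094).

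miR-6378 had 0.386 and 0.430 at 50 µM, against 0.276, 0.254, 0.186, 0.218 and 0.174 in DMSO, a 1.86-fold rise (log2 0.90 ± 0.19, limma adjusted p = 0.0083). miR-5116 was seen on both 50 µM arrays, at 0.0636 and 0.0684, and was not well above background on any of the 5 DMSO arrays, where its highest value was 0.0261. miR-5116 was at least 1.33-fold higher, taking as the DMSO level the lowest signal that counts as above background on each array (measured log2 difference 0.49, limma adjusted p = 0.0083). It met the filter of 3 arrays only through the 50 µM arrays. Elsewhere it was above background on 1 array at 10 µM after 24 h and 1 DMSO array at 48 h. All 5 DMSO values at 24 h were held at the floor, so its SE is too small and its call is weak support.

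Each riser had more than 1 probe, 14 further probes in all. Of these 14, 10 had positive differences, and the rest were held at the floor in both groups. Above background on both 50 µM arrays were 9, a choice that favours positive differences, and these 9 ran from 0.29 to 2.19. They read the same RNA on the same arrays, so they are not independent support. The second probe of miR-5105 gave 2.19 and that of miR-494-3p 0.93. The lowest value, 0.29, was that of the only other lit probe of miR-770-3p, against 0.78 for the probe used: its intensities were 14.3 and 17.7 at 50 µM, against 6.92 to 15.7 in DMSO, so the groups overlapped on it, and the 2 remaining probes of miR-770-3p were dark. For miR-5116, miR-6378 and miR-3473a the further probe was dark on at least 1 of the 50 µM arrays, so the rise rests on 1 probe.

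**Figure D2:**
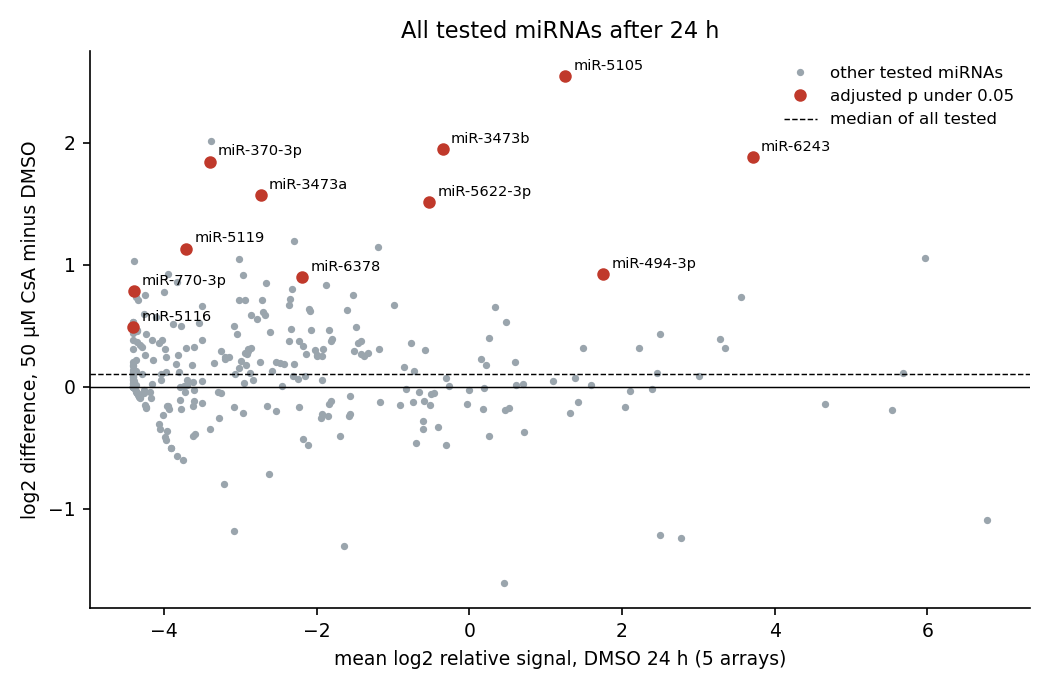
Log2 difference between 50 µM CsA and DMSO after 24 h (vertical axis) against the mean log2 relative signal on the 5 DMSO arrays (horizontal axis), 1 point per tested miRNA (289). The 11 that rose are in red, with DMSO means from -4.41 to 3.71, and the dashed line is the median of all differences, 0.11.

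The arrays behind these calls were not spread evenly over the 3 slides. The 50 µM arrays lay on slides 3 and 2 and DMSO replicates 1, 3 and 6 on slides 3, 2 and 2, while DMSO replicates 4 and 5 lay on slide 1 with no 50 µM array of that time. In 8 of the 11 risers DMSO replicates 1 and 3 were both higher than replicates 4 to 6, and in 11 of 11 replicate 4 was below both. Neither count was made over all 289. Within slide 2 the 11 differences ran from 0.54 for miR-5116 to 2.48 for miR-5105. Within slide 3 they ran from 0.43 for miR-5116 to 2.12 for miR-5105. Their positive sign was given in advance, because both 50 µM arrays lay above all 5 DMSO arrays for each riser. With slide as a block the same 11 miRNAs were called. The count was carried by both CsA arrays: without replicate 2 it was 3 calls, and without replicate 3 it was 1, miR-770-3p. Leaving out DMSO replicate 3 gave 19 calls, 14 higher and 5 lower. Scaled over all probes, miR-494-3p and miR-6378 lost their calls (limma adjusted p = 0.12 and 0.22). With the authors' deposited values 6 of the 11 were called, and miR-770-3p was not (log2 0.80, limma adjusted p = 0.81).

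Below the threshold the data leaned the same way. At an unadjusted p under 0.05 there were 32 higher and 9 lower miRNAs (14.2% of those tested). Without overlap between the groups there were 44 higher and 7 lower (15.2% and 2.42%), and 33 of the 44 were not called. Closest to the threshold was miR-5132-5p, with 0.0792 and 0.119 at 50 µM, against 0.0303 to 0.0490 in DMSO (log2 1.03 ± 0.29, limma adjusted p = 0.054). It was above background on both 50 µM arrays and on 1 DMSO array. miR-3096b-3p followed, with 1.01 and 0.922 against 0.258 to 0.740 (1.15 ± 0.33, limma adjusted p = 0.060).

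miR-5121 had one of the largest differences of all, 2.02 ± 0.63, without a call (limma adjusted p = 0.086). It had 0.412 and 0.366 at 50 µM, against 0.148, 0.189, 0.0826, 0.0577 and 0.0605 on DMSO replicates 1, 3, 4, 5 and 6, so the DMSO cultures alone were widely spread. miR-5109, with 103 and 164 at 50 µM against 44.8 to 72.1, and miR-135a-1-3p, with 0.575 and 0.591 against 0.278 to 0.448, had the same adjusted p of 0.086 in limma. Further down lay miR-1896 (0.86), miR-1306-3p (1.05) and miR-30c-1-3p (0.75), all without overlap, and miR-671-5p (0.61), whose lower 50 µM value of 0.187 was under the 0.196 of DMSO replicate 1.

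On the lower side no miRNA passed. miR-101a-3p, a repressor of Ezh2 and a liver-enriched growth suppressor, was nearest, with 0.0624 and 0.0610 at 50 µM, against 0.0984, 0.0690, 0.116, 0.142 and 0.127 on DMSO replicates 1, 3, 4, 5 and 6 (log2 -0.80 ± 0.27, limma adjusted p = 0.14). Both CsA values were below all DMSO values, narrowly so for replicate 3. The largest negative difference, -1.61 ± 0.56 for miR-5097, came with 0.307 and 0.663 at 50 µM, against 0.746, 0.577, 1.85, 2.07 and 2.94 in DMSO (limma adjusted p = 0.15), and its groups overlapped at DMSO replicate 3.

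Several such differences had one form, with DMSO replicates 4 to 6 high and replicates 1 and 3 near the CsA arrays. miR-212-3p, a miRNA induced through CREB, had 0.119 and 0.139 at 50 µM, against 0.191 and 0.138 on DMSO replicates 1 and 3 and 0.510, 0.468 and 0.522 on replicates 4 to 6 (-1.31 ± 0.51, limma adjusted p = 0.21). miR-5100 had 2.06 and 4.03 at 50 µM, against 3.67 and 3.90 on replicates 1 and 3 and 7.83, 8.58 and 15.4 on replicates 4 to 6 (-1.24 ± 0.49). miR-6402 had 0.0451 and 0.0572, against 0.0642 and 0.0571 on the same pair and 0.152, 0.159 and 0.257 on the trio (-1.18 ± 0.44). None of these could be set apart from the spread among DMSO cultures.

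The hepatocyte-enriched miRNAs gave no call. Of 14 members on the array 12 were tested, 0 were called in either direction, and the median difference was -0.11. Over all 289, 3.81% were called higher and 0% lower, so a list of this size would hold few calls or none. miR-122-5p differed by 0.11 ± 0.13. miR-192-5p, which is p53-responsive and abundant in liver, had 3.65 and 3.65 at 50 µM, against 3.36 to 4.86 in DMSO, and miR-194-5p, made from the same transcripts, had 1.38 and 1.71 against 1.28 to 1.73. miR-22-3p, abundant in hepatocytes, had 8.42 and 8.70 against 6.38 to 10.0. On the floored log2 scale 1 of the 12, miR-101a-3p, lay below DMSO without overlap, against 2.42% of all 289. Before the floor miR-192-3p, named after its values were seen, did not overlap either, with 0.0321 to 0.0369 at 50 µM, against 0.0409 to 0.0560 in DMSO, where 4 of 5 arrays were above background and neither CsA array was.

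Among 12 tested miRNAs of lipid and cholesterol metabolism, 1 rose (miR-370-3p) and 0 fell, against 3.81% and 0% of all 289, with a median of 0.03. miR-185-5p, which lowers SREBP activity, had 0.164 and 0.167 at 50 µM, against 0.183 to 0.265 in DMSO (log2 -0.48 ± 0.20, limma adjusted p = 0.24). miR-130a-3p, a repressor of Pparg, had 0.617 and 0.552 against 0.623 to 0.990 (-0.47 ± 0.23, limma adjusted p = 0.36). Both lay below all DMSO arrays without a call, as did 2.42% of all 289 without overlap on the lower side. miR-148a-3p, which targets the LDL receptor, had 0.914 and 0.859 against 0.864 to 1.12.

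Stress-linked miRNAs gave no call, and at 3.81% called over all 289, lists this small would hold few or none. The 5 tested p53-responsive miRNAs had a median of -0.01, and miR-34a-5p, a direct p53 target, had 1.27 and 1.01 at 50 µM, against 0.716 to 1.56 in DMSO. The 7 tested miRNAs linked to endoplasmic reticulum stress had a median of -0.01. Of 3 tested inflammation-linked miRNAs, miR-21a-5p had 23.5 and 22.5 against 21.5 to 27.9, and miR-155-5p had 0.0699 and 0.0763 against 0.0472 to 0.0819. miR-210-3p, the main hypoxia-induced miRNA, had 1.44 and 1.12 against 1.34 to 2.16.

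The list closest to the drug's own target was small. Of 3 miRNAs tied to calcineurin and NFAT in heart muscle, only miR-23a-3p was tested. It had 0.211 and 0.184 at 50 µM, against 0.259, 0.229, 0.174, 0.141 and 0.103 in DMSO (0.20 ± 0.46), and the groups overlapped in full.

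Growth-linked families were likewise without calls, where the 3.81% over all 289 would again give few or none in each. The 10 tested miRNAs of the miR-17 to miR-92a clusters, which drive proliferation under Myc and E2F, had a median of 0.27. miR-20a-5p had 0.794 and 0.813 at 50 µM, against 0.814, 0.683, 0.565, 0.385 and 0.275, and miR-92a-3p had 2.04 and 1.93 against 2.42, 1.90, 1.16, 0.863 and 0.690. Here too the CsA arrays lay near DMSO replicates 1 and 3. The let-7 family, which restrains growth, had 9 tested members, 0 calls and a median of 0.07. The miR-29 family (3 tested, median -0.04), the miR-30 family (5, 0.02), the miR-15 and miR-16 family (3, -0.12), the miR-23, miR-24 and miR-27 clusters (5, -0.03), the miR-182, miR-183 and miR-96 cluster (3, 0.19) and the miR-221 and miR-222 pair (2, -0.18) gave 0 calls each. The miRNA families of the Sfmbt2 intron had 11 of 61 members tested, 0 calls and a median of -0.16.

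**Figure D3:**
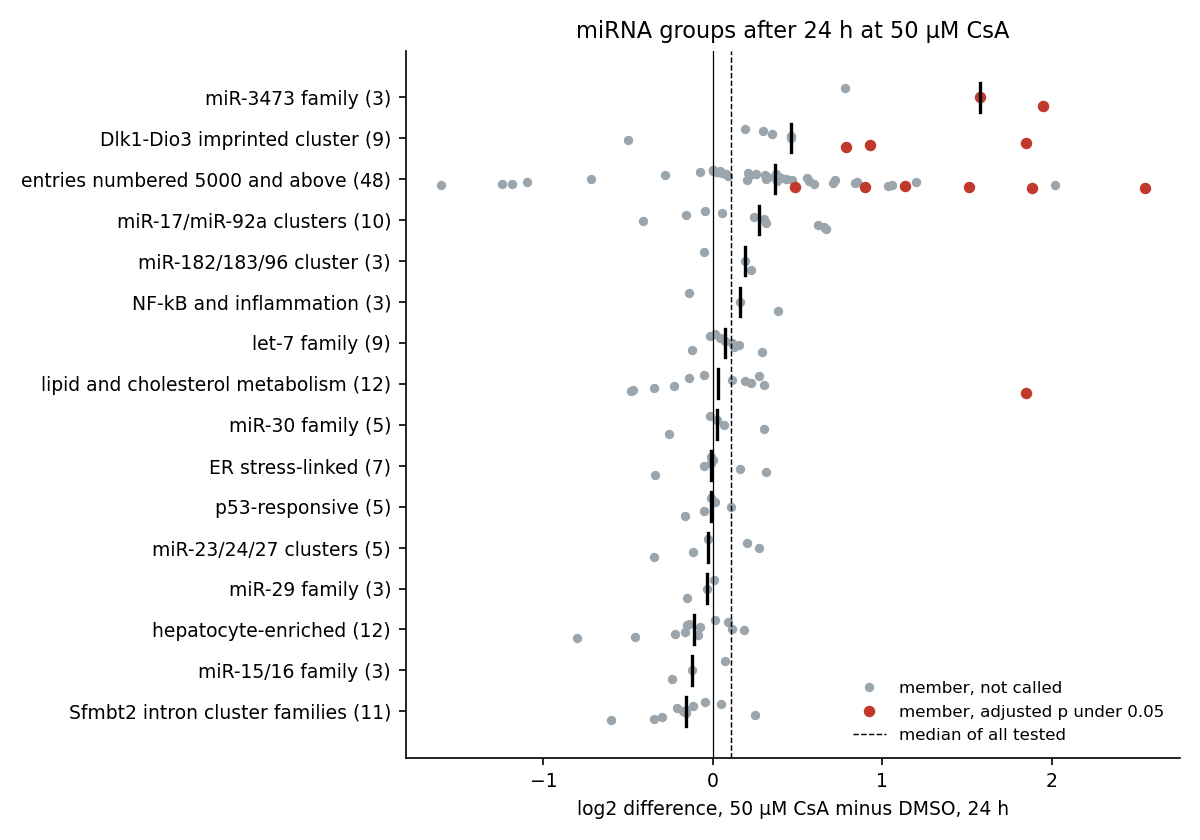
Log2 difference between 50 µM CsA and DMSO after 24 h (horizontal axis) for each tested member of the lists with at least 3 tested members; red points passed the test, black bars are list medians, the dashed line is the median of all tested miRNAs and the number tested stands beside each name. Called members are found in the miR-3473 family, the Dlk1-Dio3 cluster, the entries numbered 5000 and above and, through miR-370-3p, the lipid list.

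The entries numbered 5000 and above were the largest list, with 48 of 177 tested, 6 higher and 0 lower (3.81% and 0% over all 289), a median of 0.37 against 0.11 over all, and 17 that lay above DMSO without overlap, against 15.2% over all. It was mixed all the same. Its member miR-6366 had 35.9 and 73.9 at 50 µM, against 80.0, 55.8, 122, 151 and 199 in DMSO (-1.10 ± 0.53, limma adjusted p = 0.36), and miR-5126 had 8.54 and 18.9 against 7.94 to 11.9. miR-6360 (0.84), miR-5128 (1.20), miR-6349 (0.71) and miR-6391 (0.60) lay above all DMSO arrays without passing.

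Differences went with base composition. Over the 230 tested miRNAs matched to a RefSeq sequence, the 8 matched risers had a median G and C share of 61.1% (range 45.5% to 72.7%), against 54.5% in the others, and a median G share of 42.2% against 31.8%. Across the 230, the difference had a Spearman correlation of 0.35 with the G and C share and 0.46 with the G share (Pearson 0.25 and 0.37). These describe miRNAs that share the same 7 arrays, and they carry no p. Split into 3 parts by G and C share, the 76 miRNAs with the lowest share had a median difference of -0.05, the next 77 had 0.12, and the 77 with the highest share had 0.27. At 10 µM the Spearman correlation with the G and C share was -0.18. The part of base composition in the calls was not tested.

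**Figure D4:**
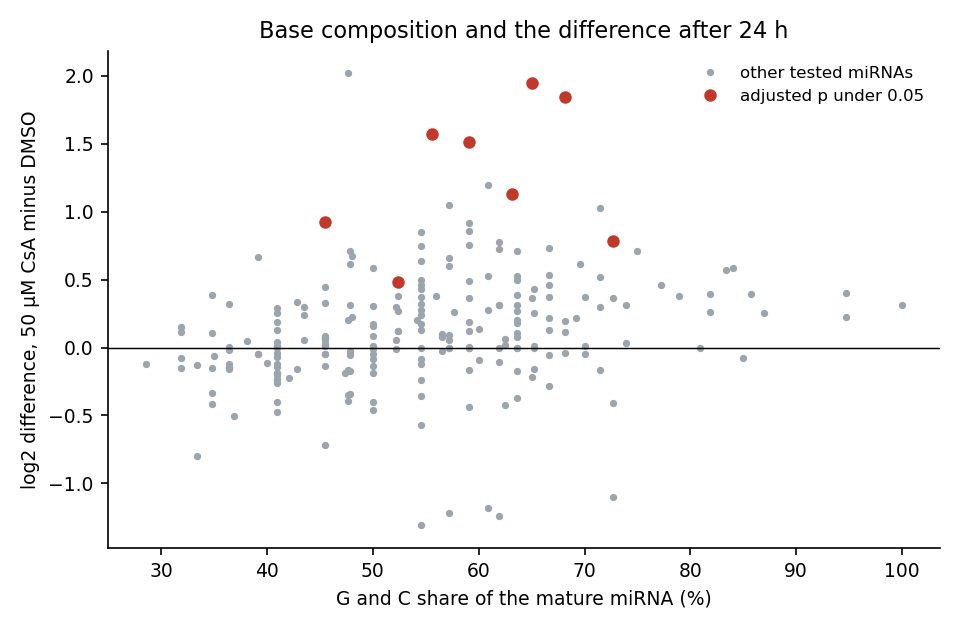
Log2 difference between 50 µM CsA and DMSO after 24 h (vertical axis) against the G and C share of the mature miRNA in percent (horizontal axis), 1 point per tested miRNA with a RefSeq sequence (230); the 8 matched risers are in red. Differences are on average lower where the share is low, and miRNAs of the same share still spread by more than 1 log2 unit.

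The dose comparison asked whether 50 µM differed from 10 µM at 24 h, with the spread taken from all 6 groups. It gave 1 call of 289 (0.346%; 26 at an unadjusted p under 0.05), miR-770-3p, with 0.0828 and 0.0801 at 50 µM, against 0.0442, 0.0511 and 0.0331 at 10 µM (log2 0.75 ± 0.08, limma adjusted p = 1.21e-05). For miR-770-3p, replicates 1 and 3 at 10 µM were held at the floor, so this SE is too small and the size depends on the floor. With the spread taken only from the groups compared there were 0 calls in limma (23 at an unadjusted p under 0.05). Both 50 µM arrays lay above all 3 arrays at 10 µM for 9 of the 11 risers. The exceptions were miR-5105 and miR-370-3p, and both came from replicate 2 at 10 µM. The risers were chosen for high values on these 50 µM arrays, which favours this order, and it was not counted over all 289. miR-5105 had 14.1 and 13.8 at 50 µM, against 3.40, 14.2 and 2.62 at 10 µM, and miR-370-3p had 0.318 and 0.362 against 0.113, 0.353 and 0.0881.

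Replicate 2 at 10 µM stood above the other 10 µM arrays for 9 of the 11 risers. It stood above all 5 DMSO arrays for 10, whereas replicates 1 and 3 did so for 5 and 1. These counts were not made over all 289, so they are not set apart from a trait of the whole array. Replicate 2 at 10 µM is the array that the scanner files name as 50 µM replicate 2. Against DMSO, which both doses share as control, 10 µM gave 0 calls in limma (16 at an unadjusted p under 0.05). The risers' own differences there were 1.07 ± 0.44 for miR-5105, 0.71 ± 0.34 for miR-6243, 0.69 ± 0.40 for miR-370-3p, 0.47 ± 0.33 for miR-3473b and 0.03 ± 0.07 for miR-770-3p. Apart from miR-770-3p, whose call rests on values held at the floor, no riser passed the test between the doses. miR-3473b, for example, had 1.48 ± 0.41 (limma adjusted p = 0.19) between 50 µM and 10 µM.

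**Figure D5:**
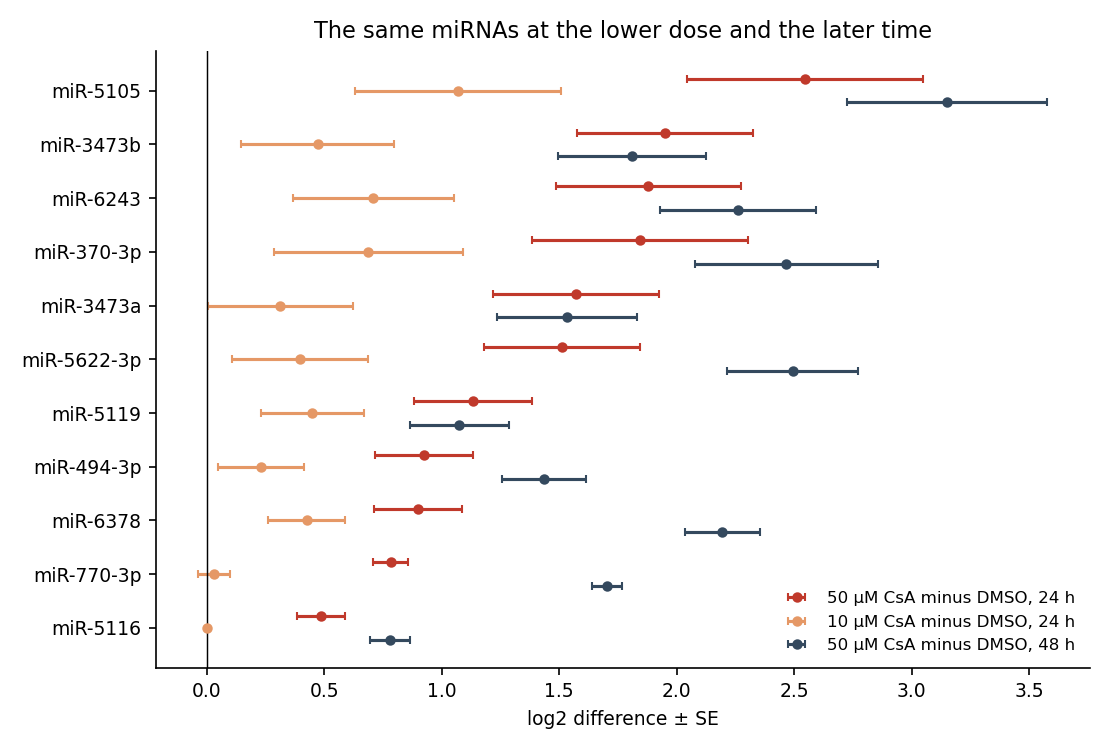
Log2 differences from DMSO of the same time with their SE (horizontal axis) for the 11 miRNAs that rose at 50 µM after 24 h (red), beside 10 µM after 24 h (orange) and 50 µM after 48 h (blue). The 10 µM differences are the smallest of the 3 for each miRNA, and miR-770-3p and miR-6378 are clearly larger at 48 h.

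The time comparison asked whether the 50 µM difference changed between 24 h and 48 h, each against its own DMSO arrays. All 11 risers of 24 h were also higher at 48 h (limma, 11 of 11; 27.3% of the 289 tested were called higher then, and 37.7% in either direction). For 8 of the 11, all 3 arrays at 48 h lay above both arrays at 24 h, a count not made over all 289. Those 3 arrays all lay on slide 1, which held neither 50 µM array of 24 h. Of the DMSO arrays at 48 h only replicate 5 lay on slide 1. Changes between the times therefore cannot be told apart from differences between slides. In the test of the change itself, 9 of 289 miRNAs passed (3.11%), 8 with a larger and 1 with a smaller value at 48 h, and 2 of the 9 were risers of 24 h.

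miR-6378 had 1.07, 1.16 and 1.53 at 50 µM after 48 h and 0.386 and 0.430 after 24 h. In DMSO it had 0.227 to 0.333 after 48 h and 0.174 to 0.276 after 24 h. Its difference from DMSO was thus 2.19 ± 0.16 at 48 h and 0.90 ± 0.19 at 24 h, and the change of 1.29 ± 0.25 passed (limma adjusted p = 0.0033).

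miR-770-3p had 0.154, 0.162 and 0.158 after 48 h and 0.0828 and 0.0801 after 24 h at 50 µM, with DMSO values of 0.0398 to 0.0552 at 48 h and 0.0393 to 0.0479 at 24 h. Its difference was 1.71 ± 0.06 at 48 h and 0.78 ± 0.08 at 24 h, a change of 0.92 ± 0.10 (limma adjusted p = 4.27e-06), with the floor bearing on both.

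The other 6 that grew were at or near background at 24 h. miR-6351 had 0.106, 0.133 and 0.162 at 50 µM after 48 h and 0.0523 and 0.0385 after 24 h, with DMSO values of at most 0.0326 at 48 h and 0.0203 at 24 h (change 1.41 ± 0.14). miR-450a-2-3p, miR-1931, miR-6418-5p, miR-452-5p and miR-1945 were dim in the same way at 24 h, with changes of 1.06, 0.84, 0.70, 1.07 and 0.75. The one smaller value was that of miR-361-5p, with a difference from DMSO of -0.74 ± 0.12 at 48 h and -0.05 ± 0.14 at 24 h (change -0.69 ± 0.18, limma adjusted p = 0.047), where it had 0.0979 and 0.100 at 50 µM, against 0.0845 to 0.122 in DMSO.

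For the remaining 9 risers the change with time did not pass, and in 3 of them it was close to 0. miR-3473b differed from DMSO by 1.81 ± 0.32 at 48 h and 1.95 ± 0.37 at 24 h (change -0.14 ± 0.49), miR-3473a by 1.53 ± 0.30 and 1.57 ± 0.35 (change -0.04 ± 0.46), and miR-5119 by 1.07 ± 0.21 and 1.13 ± 0.25 (change -0.06 ± 0.33). An SE of this size leaves room for a change of nearly 1 log2 unit in either direction. One DMSO array at 48 h, replicate 6, was the highest of its 6 for 9 of the 11 risers, a count not made over all 289. There miR-370-3p had 0.320, against at most 0.121 on the other 5.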

How the data were processed

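Small RNA was measured on 22 single-colour Agilent miRNA arrays on 3 slides. Per the file headers, the spot intensities were deposited as processed signals that Feature Extraction 10.7.3.1 had corrected for background. The authors' value table was deposited on a log2 scale, and the submitters' processing notes name R 2.15.2. The labelling kit named in the labels is the Agilent miRNA Complete kit, although their label field names biotin.

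Each value-table column was matched to a scanner file by rank correlation of total gene signal (lowest matched 1, highest other 0.968). The file's processed signal, averaged over a probe's non-control spots not marked as outliers (49880 spots, 3105 probes, 1247 miRNAs), was scaled to the 75th percentile of its array, taken over 281 probes well above background everywhere (188 to 605). Values under a floor of 0.0471 were set to it before the log2 step. No spot was saturated. A probe counted as above background where at least 0.5 of its spots did. The brightest probe stood for a miRNA, and 289 miRNAs above background on at least 3 arrays were tested in 1 limma 3.58.1 model over 6 groups (R 4.3.3), adjusted by Benjamini-Hochberg over the 289. Arrays held at the floor vary less, so SEs of such miRNAs are too small. Array number limits the precision. Tested on simulated data for this contrast, the fit called 16 of 20 miRNAs of log2 change 1 and 19 of 20 of change 2. There were 2 false calls among the unchanged miRNAs of the 289. These rates hold for the simulated noise only.

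The miRNA set and the lists were chosen with earlier results of these data known. Named are all calls, the 12 uncalled miRNAs of lowest p, the brightest members of each list (up to 4) with those at unadjusted p under 0.05, calls of the dose and time contrasts, and miRNAs sharing a riser's seed. Alternatives covered scaling, background, filters, probe summary, naming, blocks and left-out arrays.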

Additional observations from a re-analysis of the deposited data

Results flagged for a closer look

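Of the 88 named miRNAs, 6 had a DMSO array at 24 h set apart from the other 4 on the floored log2 scale; chance alone sets about 1 in 20 such groups apart. Replicate 1 stood highest for miR-5132-5p (-4.35) and miR-450a-2-3p (-4.07), and replicate 3 for miR-222-3p (-4.36), with the other 4 arrays set to the floor of -4.41 in each case, which by itself makes the remaining array stand apart; before the floor miR-5132-5p had 0.0490 there and 0.0433 next. Replicate 6 was lowest for miR-27b-3p (-1.08, next -0.57) and highest for miR-466h-3p (-1.04, next -3.27). Replicate 4 was lowest for miR-5109 (5.49, next 5.99).

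The 50 µM difference changed between 24 h and 48 h, by a test of the change itself in limma, for 9 miRNAs. On the log2 scale the changes were 1.41 for miR-6351, 1.29 for miR-6378, 1.07 for miR-452-5p, 1.06 for miR-450a-2-3p, 0.92 for miR-770-3p, 0.84 for miR-1931, 0.75 for miR-1945, 0.70 for miR-6418-5p and -0.69 for miR-361-5p. The difference between 50 µM and 10 µM at 24 h was 0.75 for miR-770-3p. For the miRNAs held at the floor in DMSO or at 10 µM the fitted sizes depend on the floor. All 3 arrays at 50 µM after 48 h lay on slide 1, so the changes with time cannot be told apart from slide differences.

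Among the negative control spots, which enter no value here, 1 spot on the array of 50 µM replicate 3 had an intensity of 213004, against 2065 for the highest such spot on the DMSO arrays at 24 h.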

How the results depend on the processing

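Across 26 alternative settings, 88 named miRNAs gave 2240 values for 50 µM against DMSO at 24 h: 1884 kept direction and side of the threshold or moved by less than the replicate spread, 71 lost a call, 67 gained one, 214 moved further and 4 turned sign. The 4 came from subtracting the mean of each array's negative controls: miR-3473a -0.11, miR-6378 -0.91, miR-125b-5p -1.88 and miR-29c-3p -1.69. That mean was set on 50 µM replicate 3 by 1 spot; with the median, added after seeing the data, the count was 12.

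For 50 µM against DMSO at 24 h (11 calls), counts were 46 with the negative controls' mean subtracted (14 higher, 32 lower), 2 with no filter on dim miRNAs, where 1247 were tested, 6 with experiments 2 and 3 only, 23 with array weights and 0 under the scanner files' names (7 at an unadjusted p under 0.05). Leaving out 1 array gave 1 to 19 calls, the lowest without 50 µM replicate 3, and 3 without 50 µM replicate 2. The remaining settings apart from the replicate block gave 8 to 16 calls, and 3 of them, slide as a block, the mean over a miRNA's probes and a trended robust fit, called the same 11.

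For 50 µM against 10 µM (1 call; unadjusted counts in brackets) there were 0 calls with quantile normalisation [24], with normexp and quantile normalisation [22], in the value table [15], with miRNAs above background on all 22 arrays [14], with only the groups compared [23] and under the files' names [3]. There were 2 with the negative controls' median, with experiments 2 and 3 only and with a trended robust fit, and 15 with array weights. Leaving out 1 array gave 1 to 3, the highest without 10 µM replicate 2.

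For the change of the 50 µM difference with time (9 calls) there were 4 with all-probe scaling, 2 with quantile normalisation, 2 with normexp, 5 with the negative controls' mean, 1 in the value table, 1 with miRNAs above background on all 22 arrays, 14 with the mean over probes, 45 with array weights, and in limma 0 with 1 added to the signal in place of the floor (22 at an unadjusted p under 0.05) and 0 under the files' names (1). Leaving out 1 array gave 6 to 30, the highest without DMSO 48 h replicate 6, and 17 without 50 µM 48 h replicate 1. For all counts above, the cause was not tested except where the number tested or left out shows it.

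With the experiment number as a replicate block the counts were 17 (the 11 among them), 1 and 30. Same-experiment correlations of deviations were 0.18 and 0.46 for replicate 2 and 0.57 and -0.09 for replicate 3. With 2 CsA arrays these deviations mirror each other, so they cannot show whether the numbers pair the samples, and no pairing was established.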
